A study of Mus musculus with 10 samples.

Results

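The striated myosin chains described here are 9 genes, 4 heavy chains (*Myh6*, *Myh7*, *Myh7b* and *Myh3*) and 5 light chains (*Myl1*, *Myl2*, *Myl3*, *Myl4* and *Myl7*), chosen by gene name among the 23195 genes of one expression table. It compares 5 wild-type with 5 *Nos1ap* null hearts, which came from male embryos of strain C57BL6/J at day 13.5 of gestation. The null embryos are homozygous for tm1d, a constitutive allele lacking exon 4 that was derived by crosses with CMV-Cre and Flpe deleter mice. Every cell of the embryo, and not the heart alone, thus carries the deletion, from which no protein is expected. *Nos1ap* encodes an adaptor protein of the neuronal nitric oxide synthase, and the comparison asks what its loss does to the transcripts of the midgestation heart. Whole hearts were used, so atria, ventricles, valves, nerves and blood are measured together, and fewer cells of a type and less RNA per cell cannot be told apart.

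Striated muscle contracts as myosin heads on the thick filament pull on actin. Each myosin molecule is built of a pair of heavy chains, which carry the motor, and each heavy chain binds an essential and a regulatory light chain at its neck. In the mouse heart the slow, beta heavy chain *Myh7* and the fast, alpha heavy chain *Myh6* share the work, with *Myh7* being the main ventricular chain before birth and *Myh6* taking over after birth and being the chain of the atria throughout. *Myl2* and *Myl3* are the regulatory and essential chains of ventricles (and of slow skeletal muscle), *Myl7* is the regulatory chain of atria, and *Myl4* is the essential chain of atria and of embryonic muscle at large. *Myh3* is the embryonic skeletal heavy chain, *Myl1* the essential chain of fast skeletal muscle, and *Myh7b* an ancient heavy chain gene that is spliced in the heart so that little protein is made.

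*Myh6* (ENSMUSG00000040752.15) and *Myh7* (ENSMUSG00000053093.15) lie next to each other on the minus strand of chromosome 14, at chr14:54941921-54966927 and chr14:54970684-54994626 (GRCm38, as are all positions given for genes, from GENCODE). Their longest coding transcripts have 39 and 41 exons, and 91.7% of 5803 aligned coding bases are identical. Of the windows of 100 bases, the read length, 687 occur in both transcripts, which is 11.4% of the windows of *Myh6* and 11.2% of those of *Myh7*. The longest coding stretch that both share is 245 bases, longer than the library inserts of 100 to 200 bases, so a fragment from inside it cannot be assigned to either gene by its letters. It is shown because the *Myh7* to *Myh6* ratio below rests on how such fragments were divided, with the shared bases in capitals and 15 flanking bases on each side in lower case, in the direction of transcription. It spans coding bases 4246 to 4490 of *Myh6* and 4240 to 4484 of *Myh7*.
Myh6: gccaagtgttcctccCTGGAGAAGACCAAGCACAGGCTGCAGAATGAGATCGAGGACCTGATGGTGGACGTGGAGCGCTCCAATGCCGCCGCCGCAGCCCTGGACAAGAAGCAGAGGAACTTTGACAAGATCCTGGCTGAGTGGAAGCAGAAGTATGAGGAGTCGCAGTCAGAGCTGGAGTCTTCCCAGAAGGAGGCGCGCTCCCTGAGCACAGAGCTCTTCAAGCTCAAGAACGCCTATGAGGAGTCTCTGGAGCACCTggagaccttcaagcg
Myh7: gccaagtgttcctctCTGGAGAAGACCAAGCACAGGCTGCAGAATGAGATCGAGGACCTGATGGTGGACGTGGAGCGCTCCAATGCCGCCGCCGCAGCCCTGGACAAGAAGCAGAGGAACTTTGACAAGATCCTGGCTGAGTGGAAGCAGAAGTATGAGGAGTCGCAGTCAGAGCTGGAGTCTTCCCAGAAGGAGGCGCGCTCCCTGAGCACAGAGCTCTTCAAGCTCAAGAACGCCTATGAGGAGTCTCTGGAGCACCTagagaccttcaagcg
The other heavy chains were more distant. *Myh3* (ENSMUSG00000020908.14, chr11:67078300-67102291, plus strand, 41 exons) is 77.2% identical to both *Myh6* and *Myh7* over its coding bases and shared no window of 100 bases with them, but 68 windows (1.15%) with the extraocular chain *Myh13*. *Myh7b* (ENSMUSG00000074652.3, chr2:155611212-155634307, plus strand, 42 exons) shared 0 windows with any other gene. Among the light chains, *Myl1* shared 92 windows (9.36%) with the pseudogene *Mylf-ps*, and *Myl2*, *Myl3*, *Myl4* and *Myl7* shared 0.

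*Myh6*, *Myh7* and *Myh7b* are known for microRNAs in their introns, a family named myomiRs. They are shown because host gene and microRNA come from the same primary transcript, although the table holds 0 rows for *Mir208a*, *Mir208b* and *Mir499*, and no microRNA level can be given. The mature sequences are those of RefSeq on GRCm38.p6, 5′ to 3′, with the seed (bases 2 to 8) in capitals. miR-208a lies in intron 29 of *Myh6*, miR-208b in intron 31 of *Myh7* and miR-499 in intron 19 of *Myh7b*, all on the strand of their hosts.
miR-208a-3p: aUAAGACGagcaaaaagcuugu
miR-208b-3p: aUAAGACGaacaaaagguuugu
miR-499-5p: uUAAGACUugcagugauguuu
miR-208a-3p and miR-208b-3p have the same seed, UAAGACG, and that of miR-499-5p is UAAGACU.

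The 120 bases before the RefSeq start of each gene (GRCm38.p6) were searched on both strands for TATAAA, the MCAT element CATTCC, the E box CAGCTG, the GATA letters AGATAA or TGATAA, the T-box letters AGGTGT, the CArG box and the MEF2 site. *Myl7* held matches to 3 of them, *Myl1* to 2, *Myh3* and *Myl3* to 1 each, and the windows of the other 5 genes to none. Of 32851 promoter windows of this length, 0.749% held a CArG box, 5.82% CATTCC, 7.63% a GATA match and 6.34% TATAAA. The windows of the atrial light chain and of the embryonic skeletal heavy chain are shown with their matches in capitals, *Myl7* with CATTCC, a CArG box and TGATAA in this order (chr11:5898783-5898902, minus strand) and *Myh3* with TATAAA at 29 to 24 bases before the start (chr11:67078180-67078299, plus strand).
Myl7: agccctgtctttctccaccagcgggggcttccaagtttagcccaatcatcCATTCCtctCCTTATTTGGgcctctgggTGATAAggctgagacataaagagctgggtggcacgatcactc
Myh3: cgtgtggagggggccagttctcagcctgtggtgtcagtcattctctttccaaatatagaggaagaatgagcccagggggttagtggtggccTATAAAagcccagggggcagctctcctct
A match describes letters and no factor binding was measured. The RefSeq starts of *Myl2* lie 7762 and 8227 bases from the GENCODE start of the gene and that of *Myl3* lies 21817 bases from it, so these windows depend on the annotation.

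The table gives, for each gene, the mean normalized count of each genotype, where a library's read pairs were divided by its size factor. From each mean below 1000, the whole read-pair counts of the 5 libraries could be worked back for 97.9% of wild-type and 98.5% of null means, with libraries numbered by falling size factor within a genotype and not by the replicate numbers of the labels. Estimated totals were 11328000 to 14023000 read pairs per library. *Nos1ap* itself averaged 144 ± 14.4 normalized counts in wild-type and 39.9 ± 5.20 in null libraries (SD, n = 5), with no overlap between them. Such a lack of overlap was seen for 0.796% of 10055 coding genes with single-library counts. Limma gave *Nos1ap* a log2 fold change of −1.83 (adjusted *P* = 2.51e-09). The group means are labelled only A and B, and A was taken as wild type partly because the paper reports *Nos1ap* as lower in the mutants. The direction of *Nos1ap* is therefore no separate check of the genotype. Wild-type library 3 stood apart. In it, 58 of 10055 protein-coding genes with single-library counts were at least 5 times as high as in every other library. The count was 0 for each of the other 9 libraries. Over 10063 genes with a mean of at least 10, limma called 3 at an adjusted *P* under 0.05 (0.0298%), and 3.73% had an unadjusted *P* under 0.05.

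Together the 9 genes took 2.29% of all normalized counts in wild type and 2.30% in null. Of the 16734 protein-coding genes with a transcript length, *Myl2* ranked 11 per length in both genotypes, and *Myl4*, *Myh7*, *Myl7*, *Myl3* and *Myh6* all stood among the first 41. These genes were thus among the most abundant messages of the heart, *Myl1* and *Myh7b* were in between, and *Myh3* was close to the limit of detection. The order of levels per 1000 bases of the longest coding transcript was *Myl2*, *Myl4*, *Myh7*, *Myl7*, *Myl3*, *Myh6*, *Myl1*, *Myh7b* and *Myh3* in both genotypes. It depends on this length. With the union of all exons as length, *Myl4* fell below *Myl3* (*Myl4* to *Myl3* ratio 0.54 in wild type and 0.55 in null). Neighbours such as *Myl7* and *Myl3* (18004 and 17457 in wild type) could not be tested against each other, because the means of 8 of the 9 genes, from 1539 upwards, are too high for single libraries to be worked back and carry no spread. For scale, 2012 coding genes with means of 500 to 1000 had a median coefficient of variation of 4.87% between libraries of a genotype.

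**Figure D1:**
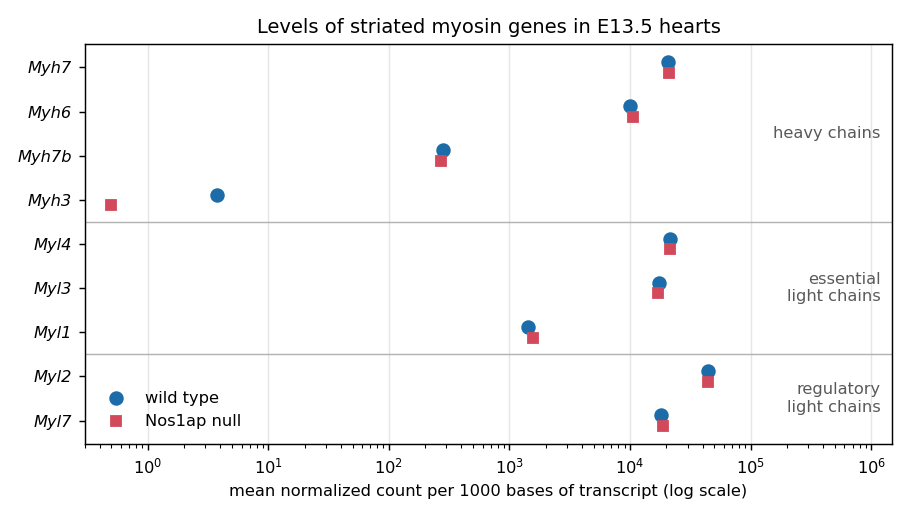
Mean normalized count per 1000 bases of the longest coding transcript (x axis, log scale) for each of the 9 genes (y axis, grouped by class), with circles for wild type and squares for *Nos1ap* null, each the mean of 5 libraries. *Myl2* is highest (44631 and 43898), and only *Myh3* has clearly separate marks (3.76 and 0.498).

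Among the heavy chains, *Myh7* had the highest level, with mean normalized counts of 128162 in wild type and 129864 in null (log2 fold change 0.02), or 20572 and 20845 per 1000 bases. By count it ranked 2 among protein-coding genes in both genotypes. *Myh6* followed with 61175 and 64570 (0.08), or 10007 and 10563 per 1000 bases. The fetal ventricular chain was therefore the more abundant of the pair, with a *Myh7* to *Myh6* ratio per base of 2.06 in wild type and 1.97 in null, a log2 difference of −0.06. *Myh7b* had 1720 and 1682 (−0.03), which is 279 and 273 per 1000 bases. Per base, *Myh7* took 66.7% of the heavy chain sum in wild type and 65.8% in null, *Myh6* 32.4% and 33.3%, *Myh7b* 0.904% and 0.862%, and *Myh3* 0.0122% and 0.00157%. With the union of all exons as length, the *Myh7* share was 61.4% and 60.5%.

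Between *Myh6* and *Myh7* lies the start of *Mhrt*, a noncoding RNA transcribed from the opposite strand that is known to bind the chromatin remodeller Brg1 in the adult heart. It runs through the 3′ end of *Myh7*, and the authors' counting used the strand. Normalized counts of *Mhrt* in the 5 wild-type libraries were 175.7, 171.3, 122.1, 164.1 and 159.3. In the null libraries they were 122.4, 187, 141.1, 146 and 163.4. The ranges overlapped over most of their length, the means were 158.5 ± 21.3 and 152 ± 24.4 (SD, n = 5), and the difference did not pass an exact two-sided permutation test (*P* = 0.643). Without wild-type library 3, which had the lowest wild-type value, the mean was 167.6 ± 7.33 (n = 4) and the exact permutation *P* was 0.254.

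Among the essential light chains, *Myl4* (ENSMUSG00000061086.12, chr11:104550663-104595753, plus strand, 8 exons) had 20180 and 20145 mean normalized counts in wild type and null (log2 fold change −0.0025), the smallest difference of the 9 genes on this scaling (as a share of all counts, *Myh7* was nearest to 0). *Myl3* (ENSMUSG00000059741.13, chr9:110741861-110769798, plus strand, 7 exons), its ventricular counterpart, had 16357 and 16045 (−0.03). *Myl1* (ENSMUSG00000061816.15, chr1:66924295-66945404, minus strand, 7 exons), the fast skeletal chain, had 1539 and 1702 (0.14). Per base, *Myl4* took 53.1% and 53.3% of the essential light chain sum, *Myl3* 43.3% and 42.7%, and *Myl1* 3.53% and 3.93%. The order of *Myl4* and *Myl3* depended on the length used, since the union of exons of *Myl4* is 4637 bases against 943 for its longest coding transcript. With the union, *Myl3* took 61.1% and 60.3% and *Myl4* 33.2% and 33.4%. The *Myl3* to *Myl1* ratio was 12.3 in wild type and 10.9 in null, a log2 difference of −0.17.

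Of the regulatory light chains, the ventricular *Myl2* (ENSMUSG00000013936.12, chr5:122100951-122113472, plus strand, 8 exons) had 39677 and 39026 mean normalized counts in wild type and null (log2 fold change −0.02). The atrial *Myl7* (ENSMUSG00000020469.8, chr11:5896637-5898782, minus strand, 7 exons) had 10622 and 11069 (0.06). Per base, *Myl2* took 71.3% of the regulatory light chain sum in wild type and 70.1% in null, and *Myl7* 28.7% and 29.9%. The *Myl2* to *Myl7* ratio was 2.48 and 2.34, a log2 difference of −0.08. With exon unions the ratio was 1.13 and 1.07, because the *Myl2* union of 1950 bases includes exons outside its longest coding transcript of 889 bases.

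**Figure D2:**
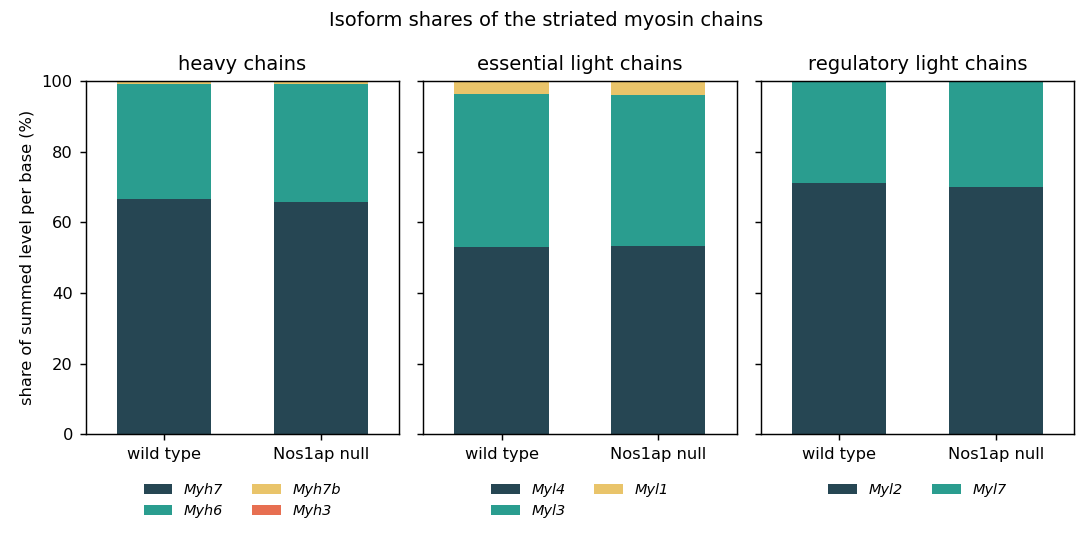
Share of each isoform (y axis, %) in the summed level per base of its class, in wild type and *Nos1ap* null (x axis), from the means of 5 libraries and the longest coding transcripts. *Myh7*, *Myl4* and *Myl2* hold the largest shares in both genotypes (66.7%, 53.1% and 71.3% in wild type), and the *Myh3* share (0.0122%) is too thin to see.

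In each class, the sum per 1000 bases was close between the genotypes. It was 30862 and 31681 for heavy chains (log2 difference 0.04), 40279 and 40059 for essential light chains (−0.0079) and 62635 and 62660 for regulatory light chains (0.00057). The 3 genes with atrial expression differed in their values. *Myh6* and *Myl7* had slightly higher means in null (0.08 and 0.06), whereas *Myl4* did not (−0.0025). The ventricular *Myl2* and *Myl3* had slightly lower means (−0.02 and −0.03) and *Myh7* a slightly higher one (0.02). None of these values was tested here, since the group means carry no spread.

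Read against other genes, most of these differences were common in size. Among 2622 coding genes whose mean reached 1000, 8.62% lay at least as far from 0 on the log2 scale as *Myh6*, 17.6% as far as *Myl7*, 45.3% as far as *Myh7b*, 52.3% as far as *Myl3*, 58.0% as far as *Myl2*, 66.0% as far as *Myh7* and 95.7% as far as *Myl4*. *Myl1* was nearer to the edge, with 42 genes (1.6%) at least as far from 0, and its value lay outside the range of −0.07 to 0.11 that holds the central 95% of these genes. The median absolute log2 fold change was 0.030 for the 8 genes without *Myh3* and 0.029 for the 2622 genes. One of the 9 genes, *Myh3*, passed an absolute log2 fold change of 0.25 and was lower in null, a side on which 4.27% of 13299 protein-coding genes with a mean of at least 10 lay (2.41% lay beyond 0.25 on the higher side, 6.68% on either). With *Myh3* taken without wild-type library 3, which could be left out for no other gene of the 9, it no longer passed.

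**Figure D3:**
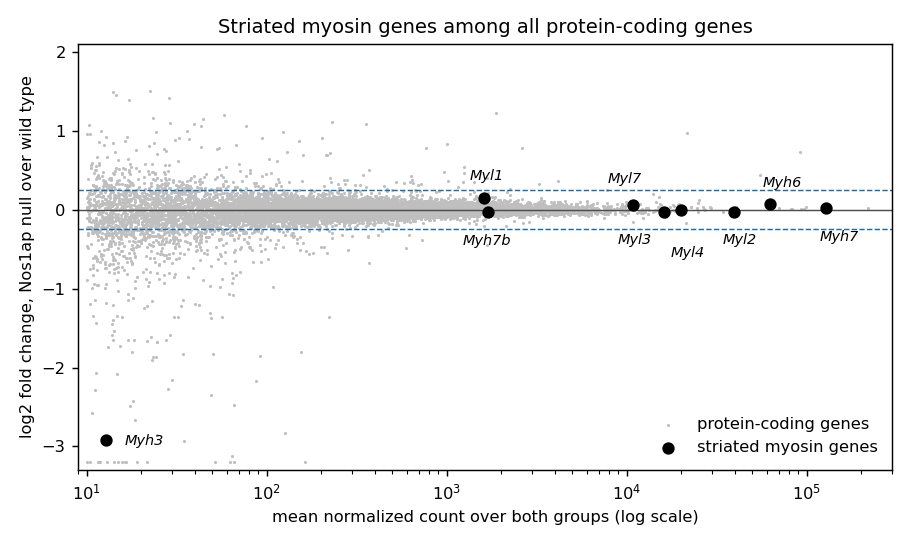
Log2 fold change of *Nos1ap* null over wild type (y axis) against mean normalized count (x axis, log scale) for 13299 protein-coding genes (grey) and the 9 striated myosin genes (black), with dashed lines at a distance of 0.25 from 0. The 17 genes beyond −3.2 or 2 are drawn at the edge. *Myh3* lies at −2.91 among low genes, and the other 8 lie between −0.03 and 0.14.

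*Myh3* was the exception in the group means, with a mean of 22.7 normalized counts for wild type against 3.005 for null (log2 fold change −2.91). It is also the one gene of the 9 whose single libraries could be worked back. The read pairs in wild-type libraries 1 to 5 were 5, 1, 101, 2 and 3. In null libraries 1 to 5 they were 4, 4, 2, 4 and 1. Library 3 alone thus held 101 of the 112 wild-type read pairs (90.2%), and the other 4 wild-type libraries overlapped the null range. As normalized counts, the values were 22.7 ± 44.8 in wild type and 3.005 ± 1.39 in null (SD, n = 5). The difference did not pass an exact two-sided permutation test (*P* = 0.675, where 0.00794 is the smallest *P* that 5 against 5 allows). Limma gave a log2 fold change of −0.83 (SE 0.886, adjusted *P* = 0.999). Without library 3, the wild-type mean was 2.62 ± 1.45 (SD, n = 4) and the direction turned, with a log2 fold change of the means of 0.20 and a limma value of 0.16 (SE 0.481, adjusted *P* = 0.997). The other 9 of the 10 libraries held only 1 to 5 read pairs of *Myh3* each.

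**Figure D4:**
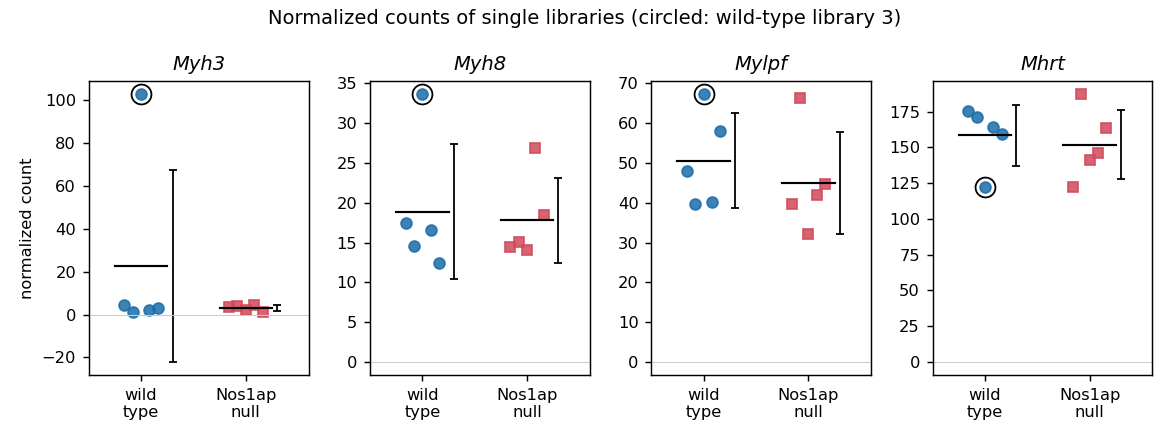
Normalized count (y axis) in each library of wild type (circles) and *Nos1ap* null (squares) for *Myh3*, the perinatal heavy chain *Myh8*, the fast skeletal regulatory chain *Mylpf* and the antisense RNA *Mhrt*, with a line for the mean and a bar for ± 1 SD (n = 5). Wild-type library 3, circled, is at 102.8 for *Myh3*, where the other 9 libraries are at 4.35 or below, and at 33.6 for *Myh8*.

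The genes whose pattern over the 10 libraries was most like that of *Myh3*, of 10054 protein-coding genes compared, were *Snap25*, *Ttyh1* and *Nhlh2*, with Pearson correlations of log2(normalized count + 1) of 0.98, 0.98 and 0.97. All of these lean on one library. *Nhlh2*, a transcription factor gene of neurons, had 111 read pairs in wild-type library 3 and 0 or 1 in each of the others. *Snap25*, a synaptic vesicle fusion gene, had 127 there and 2 to 9 elsewhere. Without library 3 the correlations were 0.82 for *Snap25*, 0.74 for *Ttyh1* and 0.70 for *Nhlh2*. The 3 genes were picked by their correlation over these same libraries, and *Myh3* had few read pairs in the rest. The values without library 3 are therefore no separate evidence of a shared pattern.

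Markers of other tissues moved with *Myh3* in library 3. The summed normalized count of 6 neuronal and glial genes was 1168 in it, against 243.1 to 266.2 in the other wild-type and 213.2 to 255.6 in the null libraries, and each of the 6 was highest there. Of 12 skeletal muscle genes with single-library counts, 7 were highest in library 3, and their sum was 449.9, against 294.8 to 387.1 in the other wild-type and 335.7 to 478.6 in the null libraries. *Myod1*, the myogenic determination gene, had 13 read pairs in library 3 and 0 to 2 in all others. *Myog*, which acts after it, had 18 against 2 to 10, and *Chrng*, the fetal subunit of the muscle acetylcholine receptor, 19 against 3 to 13. *Myf6* had 0 in it, and *Tnni2*, *Tnnt3* and *Actn3* lay within the range of the other libraries. *Myh11*, the smooth muscle heavy chain, had 202 against 26 to 72. The most abundant gene of the smooth muscle list, *Acta2*, had group means of 12534 and 12154 (log2 fold change −0.04) and no single-library counts. The part of these other tissues in the *Myh3* value was not tested. No *Myh13* read pair was present in library 3, so the windows it shares with *Myh3* drew no count to *Myh13* there.

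**Figure D5:**
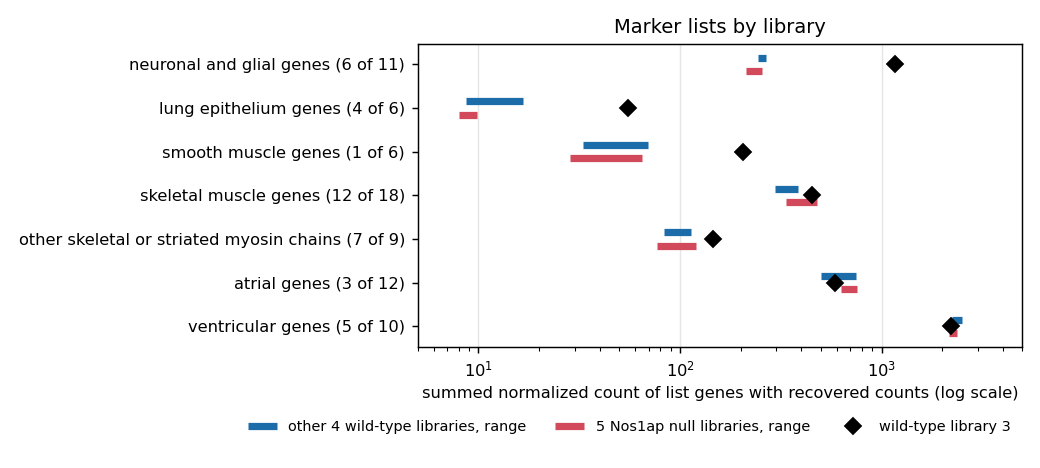
Summed normalized count (x axis, log scale) of marker lists (y axis, with the number of list genes that have single-library counts) in wild-type library 3 (diamonds), the range over the other 4 wild-type libraries (upper bars) and the range over the 5 *Nos1ap* null libraries (lower bars). Library 3 lies to the right of both ranges for neuronal, lung epithelium (55.0), smooth muscle and other striated myosin genes. It lies inside the null range for skeletal muscle and ventricular genes. The smooth muscle point is *Myh11* alone, 1 of 6 listed genes. The lung point comes from *Sox2*, *Epcam* and *Cdh1*, as *Sftpb* had 0 read pairs in library 3 and *Nkx2-1* and *Sftpc* gave no values. For atrial genes it lies inside the other wild-type range.

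The remaining sarcomeric chains of skeletal muscle were low. *Myh8* stood at 18.9 ± 8.44 normalized counts in wild-type and 17.8 ± 5.36 in null libraries (SD, n = 5), with overlapping ranges (exact permutation *P* = 0.762), and at 15.2 ± 2.22 in the 4 wild-type libraries other than library 3 (exact permutation *P* = 0.492). *Mylpf* had 50.6 ± 11.9 and 45.0 ± 12.8 (exact permutation *P* = 0.484), and *Myl6b*, an essential light chain of slow muscle and nonmuscle cells, 30.0 ± 7.05 and 32.8 ± 6.16 (exact permutation *P* = 0.548). Adult fast chains were at the edge of detection, with at most 13 read pairs of *Myh1*, 1 of *Myh2* and 2 of *Myh4* in any library. Of the 7 such chains analysed, 3 had a mean of at least 10, and 0 of them passed a log2 fold change of 0.25 in either direction.

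Of the 8 smooth and nonmuscle myosin chains, 7 had a mean of at least 10, and 1 of these, *Myh11*, passed the same fold, being lower in null (84.0 and 44.1, log2 fold change −0.93), with its high value in library 3 given above. Its difference did not pass an exact permutation test over the 10 libraries (*P* = 0.206), and without library 3 its wild-type mean was 53.6 ± 15.1 against 44.1 ± 16.2 in null (SD, exact permutation *P* = 0.413). The most abundant was *Myl9*, a regulatory light chain of smooth muscle, with 11132 and 11325 (0.02). Of 14 partners of the thick filament with a mean of at least 10, among them binding proteins, kinases and folding factors, 0 passed the fold, with a median of 0.05. *Mybpc3*, cardiac myosin binding protein C, had 26145 and 26839 (0.04), and *Mybphl* had the largest difference (320 and 344, 0.11). Among 19 regulators of myosin genes, 0 passed. Their median was 0.02, and the largest difference was that of the thyroid hormone receptor *Thrb* at a low level (18.5 and 16.7, −0.15).

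Lists of atrial and ventricular genes were compared next, which in whole hearts do not show the chamber a transcript came from. Of 12 atrial genes, 1 was past 0.25 and higher in null and 0 lower, with a median log2 fold change of 0.07. All but *Nppa* had a higher mean in null, though only 3 had single-library counts for a test. The median over 13299 protein-coding genes with a mean of at least 10 was −0.00093. *Nppa*, the gene of atrial natriuretic peptide, had 16541 and 15810 (−0.07) and was the most abundant in wild type, while *Pam*, a peptide-processing enzyme gene of atrial granules, had 15033 and 15811 (0.07). The gene past the fold was *Sln*, encoding the calcium pump inhibitor sarcolipin of atria, at 77.2 ± 18.9 normalized counts in wild-type and 97.8 ± 12.4 in null libraries (SD, n = 5). The wild-type libraries spanned 51.7 to 92.2 and the null libraries 81.0 to 108.6, so the groups overlapped, and the difference passed neither an exact permutation test (*P* = 0.0794) nor limma (0.37, adjusted *P* = 0.999). Without library 3 the wild-type mean of *Sln* was 80.9 ± 19.5 (exact permutation *P* = 0.159, n = 4). Of 10 ventricular genes, 0 passed the fold in either direction, with a median of 0.01, *Hand1* being farthest from 0 (356 and 325, −0.13). Of 12 cardiomyocyte genes, which all had means of 1648 or more in both genotypes, 0 passed, with a median of 0.03 and *Ryr2*, the calcium release channel, farthest from 0 (0.15).

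Blood and nerve markers differed more than any cardiac list. Of 10 erythroid genes, 8 were past 0.25 and higher in null, with a median of 0.42 (*Hbb-y*, an embryonic globin, 69480 and 115020, 0.73), where 2.41% of all coding genes lay on that side. The globin *Hbb-bt* (0.20) stayed within 0.25, as did *Hbb-bs*, which was lower in null (−0.17). Only *Klf1*, an erythroid transcription factor gene, had single-library counts, with 10.4 to 29.6 normalized counts in wild type and 14.4, 92.5, 11.1, 30.1 and 21.8 in the null libraries. Null library 2 was thus far above the rest, the other 4 null libraries lay close to the wild-type range, and the difference did not pass an exact permutation test (*P* = 0.532). Whether the other erythroid genes followed the same library is not known. Of 11 neuronal and glial genes, 10 were past 0.25 and lower in null, with a median of −1.83, and the 6 of them with single-library counts were highest in wild-type library 3. The myosin values were also taken as a share of all counts, with the globins kept in the sum. This lowered every log2 fold change by 0.016 and gave 0.06 for *Myh6*, 0.0028 for *Myh7*, −0.04 for *Myl2*, 0.04 for *Myl7* and 0.13 for *Myl1*. No gene of the 9 changed sign. A scaling that leaves the globins out was not run, so this share is no check on globin load. The part of blood content in the values of the myosin genes was not tested.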

How the data were processed

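Hearts were measured by stranded polyA RNA-seq. As given by the study and its processing notes, reads were trimmed (Trimmomatic 0.36), aligned to GENCODE transcripts on GRCm38 by STAR within RSEM 1.2.31, which divides reads shared by genes among them, and compared between genotypes with DESeq 1.24.0. The deposited signal values are normalized counts, averaged by the authors over the 5 libraries of a genotype. The table's columns of fold changes, p-values and adjusted p-values hold the authors' own comparison and were not used. The members and lists were chosen with earlier results of these data known.

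From each group mean under 1000, given to 15 significant digits, the whole counts of 5 libraries were searched in a reduced lattice and accepted if chance would give no more than 0.01 further sets of equal closeness. On simulated wild-type means, 3818 of 3887 were recovered with 0 wrong, and on null means 3806 of 3869 with 1 wrong. The simulated libraries of a group were nearly even, so this does not cover genes that are high in a single library. The neuronal genes *Stmn2*, *Tubb3*, *Prph*, *Nefm* and *Nefl* had means below 1000 and could not be worked back. The estimated depth was 11328000 to 14023000 read pairs per library. Limma 3.58.1 (R 4.3.3, trend and robust) was fitted to log2(normalized count + 1) of protein-coding genes with a mean of at least 10, with Benjamini-Hochberg adjustment over all of them. In simulation for this comparison (10063 genes), it called 58, 145 and 190 of 200 genes changed by 0.25, 0.5 and 1.5 on the log2 scale. Single genes had an exact two-sided permutation test over 252 arrangements. Libraries carry no label replicate number, and as nothing ties libraries to litters, p-values measure the spread between these hearts. Levels of different genes were compared per base of the longest coding transcript (GENCODE M21). Alternatives changed the length, scaling, pseudocount, filter, weights and libraries.

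Genes named are the 9 members, *Nos1ap*, *Mhrt*, the 3 genes most correlated with *Myh3*, and list genes, mainly the most abundant and the one with the largest fold.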

Additional observations from a re-analysis of the deposited data

Results flagged for a closer look

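Within a group of 5 libraries, a value is listed here where its gap to the nearest other library, divided by the range of the group, is above 0.71. For normally distributed values, chance alone gives this in about 1 in 20 groups. That rate does not hold for counts near 0, since a group with read pairs in a single library is always listed. Of the striated myosin genes with single-library counts, *Myh3* in wild-type library 3 (102.8 normalized counts) and *Myh8* in the same library (33.6) lie far above the others of their group. *Myh4* is listed for wild-type library 3 (2.04) and for null library 2 (1.01), where the counts are 2 and 1 read pairs against 0 in the other 4 libraries of the group.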

How the results depend on the processing

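No paired analysis was possible because the values carry no replicate numbers, so a replicate block could not be fitted. The count of genes past an absolute log2 fold change of 0.25 was 1 at thresholds of 0.5 and 1 too and under median centring and as a share of all counts, but 0 with *Myh3* taken without wild-type library 3 and the other 8 genes left as they were, where its log2 fold change from the means was 0.20 (an alternative chosen after seeing the data). Leaving out each library in turn, the limma log2 fold change of *Myh3* ran from −1.27 to 0.16 and the difference of means from −25.1 to 0.38, the positive values being those without wild-type library 3, and no fit passed. Over all genes with single-library counts, limma made 3 to 4 calls, 307 to 588 genes having an unadjusted *P* under 0.05. A minimum mean of 50 left *Myh3* out. The median log2 fold change of the 9 genes was −0.0025, and −0.019 as a share of all counts, with or without the members in the sum.

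The shares moved with the length. Wild-type and null *Myh7* shares were 61.4% and 60.5% with exon unions and 67.1% and 66.2% with no length. *Myl4* shares were 33.2% and 33.4% with unions. *Myl2* shares were 53.1% and 51.6% with unions, 78.9% and 77.9% with no length, and 69.0% and 67.7% with 150 bases taken off each transcript for the insert (chosen after seeing the data). *Myh3* and the adult fast chains rest on few read pairs, and the other 8 genes have no replicate error here.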
